A study of Mus musculus with 5 samples.

Results

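The genes described here encode 8 proteins that the mouse gut epithelium secretes or sheds as part of its chemical defence: the C-type lectins Reg3b, Reg3g and Reg4, the resistin-like protein Retnlb (RELMβ), the mucosal pentraxin Mptx1, the angiogenin-family ribonuclease Ang4, the surface protein Lypd8 and the galactose-binding intelectin Itln1. They were taken by symbol, 8 of the 55471 genes in the deposited tables, and they had been chosen by their counts and fold changes in these same libraries. Their levels and tests in the treatment comparison are therefore a description and give no independent support. RNA came from pieces of colon of male C57BL/6 mice aged 11 weeks. Every mouse had received TNBS, a hapten that provokes colitis when given into the colon, and the tissue was taken 3 days later. In one group, of 2 libraries, mice had been given vehicle, and in the other, of 3 libraries, they had been given propyzamide, a herbicide that blocks plant microtubule assembly. Neither the dose nor the colon segment is given in the sources used here, and no colon without TNBS was analysed here. The labels do not say outright that each library is a separate animal, and p-values therefore measure only how far these libraries spread.

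Reg3 lectins are small secreted proteins. Reg3g binds peptidoglycan and kills Gram-positive bacteria near the epithelial surface, and Reg3b acts mainly on Gram-negative bacteria. In the mouse intestine both are induced by microbes and by interleukin-22 acting through STAT3, and they are more abundant in the small intestine than in the healthy colon. Retnlb is made by goblet cells and is induced by interleukin-13 and by bacterial colonisation, Ang4 was described as a product of Paneth cells and is also made by goblet cells, and Lypd8 is a glycosylphosphatidylinositol-linked protein of colonic enterocytes that binds flagella and keeps motile bacteria out of the inner mucus. Reg4 marks deep secretory cells at the base of the colonic crypt. Mptx1 is a pentraxin, a family of soluble proteins that recognise microbial surfaces.

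The libraries held 1573700 to 2706885 estimated counts, of which 26.3% to 43.6% fell in rRNA-like loci and 9.999% to 21.6% in mitochondrial genes. Counts also appeared in genes that colon should not use: of 1738 olfactory and vomeronasal receptor genes, 71.2% and 56.3% had a count in the vehicle libraries, against 11.4%, 43.7% and 17.0% in the propyzamide libraries. Scaled by exon length, that level corresponds to at most 1.90 counts for any of the 8 genes in any library. Propyzamide and vehicle libraries carried different second index sequences, with 0 shared, so the index and the treatment cannot be told apart. As markers of the labelled tissue, the 11 pan-epithelial genes summed to 7203 and 6281 CPM (counts divided by the TMM-scaled library size, on the usual scale) in vehicle and to 8614, 7134 and 6299 CPM in propyzamide.

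Reg3b and Reg3g lie at the ends of a cluster of Reg genes on chromosome 6 (GRCm38, GENCODE M21). Reg3b occupies chr6:78370657-78373466 on the plus strand and Reg3g chr6:78466269-78468872 on the minus strand. The 4 genes between them, Reg3d, Reg3a, Reg2 and Reg1, had 2 counts in all over the 5 libraries, both in Reg2, against 615 for Reg3b and 233 for Reg3g. The coding sequences of Reg3b and Reg3g are 76.0% identical. Of the 31-base words in the main Reg3b transcript, 0.664% also occur in Reg3g, so the reads of the pair can largely be told apart. Their coding sequences open as follows (first 90 bases, read from the GENCODE M21 transcripts). The lines show how closely the pair resemble each other and where reads separate them, with the 18 differing bases in capitals.
Reg3b: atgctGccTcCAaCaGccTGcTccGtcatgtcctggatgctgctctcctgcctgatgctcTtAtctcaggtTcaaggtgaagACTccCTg
Reg3g: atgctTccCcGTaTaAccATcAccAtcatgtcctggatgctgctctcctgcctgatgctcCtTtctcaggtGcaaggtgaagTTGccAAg

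Promoters are shown for the 4 genes that passed the test, since these are the ones whose transcripts moved. RefSeq windows (GRCm38.p6) were found for 7 of the 8 genes, as 8 windows, and the 250 bases before each start were searched on both strands. A STAT site was searched as TTCNNNGAA, letters held by 7.02% of 32851 windows of that length. The TATA box was searched as TATAAA and found in 12.4% of the windows. Sites of the GATA factors were searched as AGATAA and found in 9.99% of the windows. Capitals mark the matches in the lines below. The Reg3b line is cut to the 154 bases that lie outside annotated exons.
Reg3b, chr6:78370707-78370860, plus strand: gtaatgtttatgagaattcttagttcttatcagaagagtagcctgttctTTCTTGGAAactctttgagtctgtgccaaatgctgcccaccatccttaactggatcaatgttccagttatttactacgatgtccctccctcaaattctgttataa
Reg3g, chr6:78468875-78469124, minus strand: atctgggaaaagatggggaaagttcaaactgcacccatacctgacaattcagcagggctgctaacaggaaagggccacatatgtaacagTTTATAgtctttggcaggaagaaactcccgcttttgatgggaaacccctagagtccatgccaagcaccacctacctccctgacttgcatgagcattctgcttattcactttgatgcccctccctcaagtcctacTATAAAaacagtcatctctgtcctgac
Reg4, chr3:98221906-98222155, plus strand: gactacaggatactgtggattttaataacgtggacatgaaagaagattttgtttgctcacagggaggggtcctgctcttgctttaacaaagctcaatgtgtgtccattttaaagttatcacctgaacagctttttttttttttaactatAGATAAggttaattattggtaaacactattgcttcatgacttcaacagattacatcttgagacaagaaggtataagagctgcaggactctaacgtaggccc
Mptx1, chr1:174330268-174330517, plus strand: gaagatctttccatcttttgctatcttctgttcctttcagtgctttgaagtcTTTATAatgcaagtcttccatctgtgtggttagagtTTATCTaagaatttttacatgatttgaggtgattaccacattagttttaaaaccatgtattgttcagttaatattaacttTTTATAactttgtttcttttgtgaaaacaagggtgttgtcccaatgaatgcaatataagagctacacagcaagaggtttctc

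The Reg3b window held a STAT match 129 bases before the start and a TATA box 29 bases before it, the latter running into an annotated exon and left out of the line above. In Reg3g a TATA box stood close to the start, at 27 bases, and again at 161 bases. Mptx1 had TATA matches at 198 and 82 bases and a GATA match at 162, and Reg4 had a GATA match alone, at 101 bases. Among the genes that did not pass the test, Ang4 held a STAT match at 192 bases and 1 of the 2 Lypd8 windows held a GATA match at 202. The Itln1 window held none of the searched motifs. A match is a run of letters and was not tested as a binding site.

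Of the 8 genes, 7 had enough counts to be tested and Itln1 did not. Reg3b and Reg3g rose and Reg4 and Mptx1 fell under propyzamide, whereas Retnlb, Ang4 and Lypd8 did not pass the threshold of 0.05 on edgeR's adjusted p. Over all 12024 genes tested, 1.90% passed in either direction, 0.690% being higher and 1.21% lower. The groups did not overlap in CPM for 5 of the 7, against 37.5% of all tested genes. The median log2 fold change was -0.14 over the 7 and -0.018 over all tested genes. Since these genes were picked for this contrast, nothing is read from those shares. In bulk tissue fewer cells of a type and less RNA per cell cannot be told apart.

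**Figure D1:**
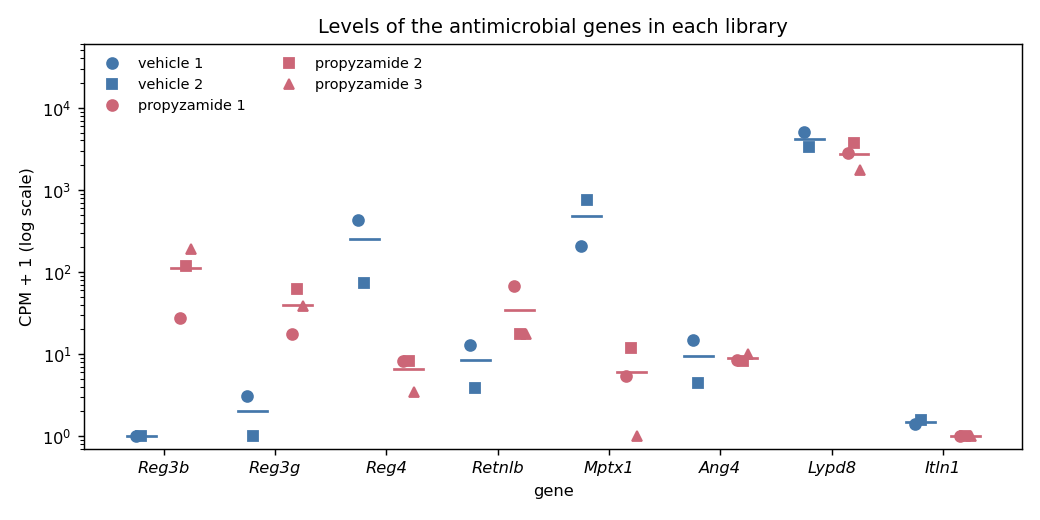
Level of each gene in each library, as CPM + 1 on a log axis, with vehicle in blue, propyzamide in red, a symbol for each replicate and a bar at the group mean. Reg3b and Reg3g stand higher in all 3 propyzamide libraries, Reg4 and Mptx1 stand higher in both vehicle libraries, and Ang4 and Lypd8 overlap between the groups.

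Reg3b had 0 counts in both vehicle libraries and 77, 226 and 312 counts in propyzamide replicates 1, 2 and 3. On the CPM scale the propyzamide libraries stood at 26.2, 116 and 189.9, a mean of 110.7 ± 82.0 (SD, n = 3). Every propyzamide library was thus above every vehicle library, and the propyzamide libraries themselves spread widely. Against the limit of 3 counts over the vehicle group, equal to 0.718 CPM, Reg3b was at least 131-fold higher. The fitted log2 fold change was 10.88 (SE 1.44, edgeR quasi-likelihood test, adjusted p = 0.00605), a value that depends on the prior count because vehicle had none. Without vehicle replicate 1 the adjusted p was 0.0619. Most of the signal was in the spliced protein-coding transcript of 783 bases, which took 94.7%, 99.2% and 99.2% of the gene's counts in the propyzamide libraries.

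Reg3g had 5 and 0 counts in vehicle and 49, 118 and 61 in propyzamide. As CPM these were 2.07 and 0 against 16.7, 60.6 and 37.1, with means of 1.03 ± 1.46 (SD, n = 2) and 38.1 ± 22.0 (SD, n = 3). The groups did not overlap, and propyzamide replicate 1 was the lowest of its group, as it was for Reg3b. The counts were 29.2-fold higher in propyzamide (95% exact counting interval 12.3 to 90.7), and the fitted log2 fold change was 4.96 (SE 0.84, edgeR adjusted p = 0.0149). The call did not hold without vehicle replicate 1 (adjusted p = 0.0537) or without vehicle replicate 2 (adjusted p = 0.0995), with log2 fold changes of 9.29 and 4.21. All 5 vehicle counts were assigned to a retained-intron transcript of 2089 bases. The spliced coding transcript of 771 bases was listed at 0 in both vehicle libraries and held 94.9%, 98.9% and 100% of the gene's counts in propyzamide.

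Reg4, at chr3:98222156-98236748 on the plus strand, moved the other way. It had 1035 and 128 counts in vehicle and 21, 14 and 4 in propyzamide, or 428 and 72.6 CPM against 7.14, 7.19 and 2.44 CPM. The vehicle libraries spread widely, with an SD as large as their mean (250.3 ± 251 CPM, SD, n = 2), but both lay above the propyzamide libraries at 5.59 ± 2.73 CPM (SD, n = 3). Reg4 fell 46.6-fold by counts (95% exact counting interval 33.9 to 65.9), with a log2 fold change of -5.43 (SE 0.68, edgeR adjusted p = 0.00413). It passed with each library left out in turn, with log2 fold changes from -6.14 to -3.67. The shallowest of these came without vehicle replicate 1, which held most of the Reg4 counts. Reg4 shares 0 of its 31-base words with another gene, and its coding sequence is 49.6% identical to that of Reg3b.

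Mptx1, at chr1:174330518-174332873 on the plus strand, had 504 and 1309 counts in vehicle and 13, 21 and 0 in propyzamide. These were 208 and 743 CPM against 4.42, 10.8 and 0 CPM, with means of 476 ± 378 (SD, n = 2) and 5.07 ± 5.42 (SD, n = 3). Here vehicle replicate 2 was the higher of the vehicle pair, the reverse of Reg4. Mptx1 fell 83.3-fold by counts (95% exact counting interval 59.4 to 121), with a log2 fold change of -6.51 (SE 0.82, edgeR adjusted p = 0.00413), and passed with each library left out in turn (-7.49 to -5.27). Its sequence is not wholly distinctive: 24.97% of its 31-base words also occur in Mptx2, a Paneth cell pentraxin whose coding sequence is 91.9% identical. Mptx2 was given 1 count in all, in vehicle replicate 1, so the split between this pair rests on how reads were assigned upstream.

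Retnlb, at chr16:48816856-48818892 on the plus strand, had 29 and 5 counts in vehicle and 196, 32 and 27 in propyzamide. The CPM values were 11.99 and 2.84 against 66.6, 16.4 and 16.4, means of 7.42 ± 6.47 (SD, n = 2) and 33.2 ± 29.0 (SD, n = 3). Every propyzamide library was above both vehicle libraries, but 1 propyzamide library stood well above the other 2. The log2 fold change was 2.13 (SE 0.73) and did not pass (edgeR adjusted p = 0.147). By counts the ratio was 4.80 (95% exact counting interval 3.35 to 7.08). With a library left out the log2 fold change ranged from 1.05, without propyzamide replicate 1, to 3.53, without vehicle replicate 1, and passed in none of the 5 cases. The gene did pass with no filter on low counts (adjusted p = 0.00192). Retnlb shares 0 of its 31-base words with another gene.

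Ang4, at chr14:51763878-51773590 on the minus strand, had 33 and 6 counts in vehicle and 22, 14 and 15 in propyzamide. The propyzamide libraries, at 7.48, 7.19 and 9.13 CPM, all lay between the vehicle libraries, at 13.6 and 3.405 CPM. The means were 8.53 ± 7.24 (SD, n = 2) and 7.93 ± 1.05 (SD, n = 3), with a log2 fold change of -0.14 (SE 0.65, edgeR adjusted p = 0.942). The sign rests on vehicle replicate 1, without which it was 1.18. Of the 31-base words of Ang4, 13.8% also occur in Ang, Ang2, Ang5 or Ang6, so a part of its count is uncertain.

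Lypd8, at chr11:58379043-58390728 on the plus strand, was by far the most abundant of the 8. It had 12155 and 5903 counts in vehicle and 8256, 7218 and 2831 in propyzamide, or 5027 and 3349 CPM against 2806, 3705 and 1723 CPM. The groups overlapped, since propyzamide replicate 2 was above vehicle replicate 2. The means were 4188 ± 1186 (SD, n = 2) and 2745 ± 992 (SD, n = 3), and the log2 fold change of -0.61 (SE 0.53) did not pass (edgeR adjusted p = 0.598). With a library left out it stayed between -0.90 and -0.31. The difference was therefore not larger than the spread between libraries.

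Both annotated Lypd8 transcripts are protein-coding. The longer, of 1219 bases, took 6.28% and 9.32% of the gene's counts in vehicle and 13.1%, 11.4% and 18.3% in propyzamide. The shorter form, of 1093 bases, took the rest. Every propyzamide library thus held a larger share of the longer form than either vehicle library. This is a description without a test, and the shares are estimates that divide reads common to both forms.

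**Figure D2:**
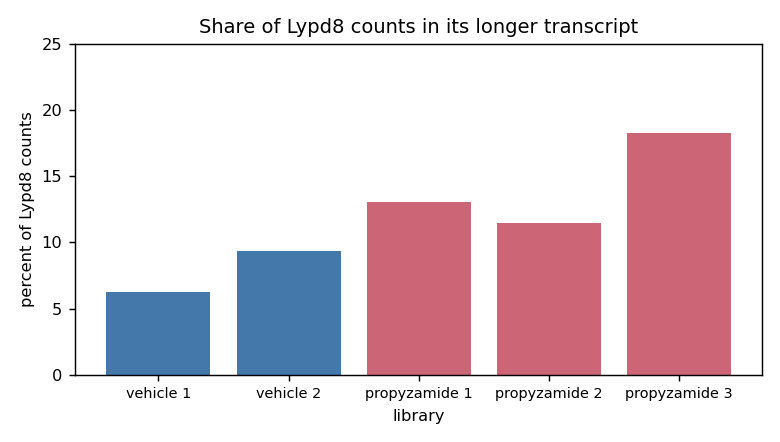
Percent of the estimated Lypd8 counts assigned to the longer transcript in each library, as bars from 0. The vehicle bars (blue) stand at 6.28% and 9.32% and the propyzamide bars (red) at 11.4% to 18.3%.

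Itln1, at chr1:171518122-171535294 on the minus strand, had 1 count in each vehicle library and 0 in each propyzamide library. Both groups were at or under the limit of 3 counts (0.718 CPM in vehicle, 0.459 CPM in propyzamide), so no fold is given and a difference was not detectable at this depth. The level of receptor-gene background corresponds to 1.03 and 0.645 counts for a gene of its exon length in the vehicle libraries. Its own single count in each was at that level.

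Levels can be set against each other between genes only per transcript length, as TPM, summed here from the authors' values. Lypd8 was first in every library, at 9044 and 2727 TPM in vehicle and 3200, 3123 and 1393 TPM in propyzamide. It made up 85.8% and 73.7% of the TPM of the 8 genes in vehicle and 92.9%, 91.7% and 81.2% in propyzamide. Below it the order changed with treatment.

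In vehicle replicate 1, Reg4 (844 TPM) and Mptx1 (562 TPM) followed Lypd8, with Ang4 (43.3 TPM) and Retnlb (39.0 TPM) next. In vehicle replicate 2, Mptx1 (900.6 TPM) was above Reg4 (64.9 TPM), and Ang4 and Retnlb stood at 4.83 and 4.12 TPM. Reg4 and Mptx1 thus changed places within the vehicle pair. Ang4 was just above Retnlb in both libraries, by less than either gene differed between them.

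In the propyzamide libraries Reg3b stood at 46.9, 149 and 236 TPM, Reg3g at 28.8, 78.7 and 47.0 TPM, and Retnlb at 137, 24.5 and 23.7 TPM. Reg3b was second after Lypd8 in replicates 2 and 3, and Retnlb was second in replicate 1. The remaining genes were lower: Ang4 had 14.99, 10.5 and 12.9 TPM, Mptx1 had 7.57, 13.5 and 0 TPM and Reg4 had 8.98, 6.66 and 2.18 TPM. Ang4 and Mptx1 changed places between replicates, so their order lay within the spread. Leaving Lypd8 out, the other genes summed to 1491 and 975 TPM in vehicle and to 244, 283 and 322 TPM in propyzamide, without overlap.

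**Figure D3:**
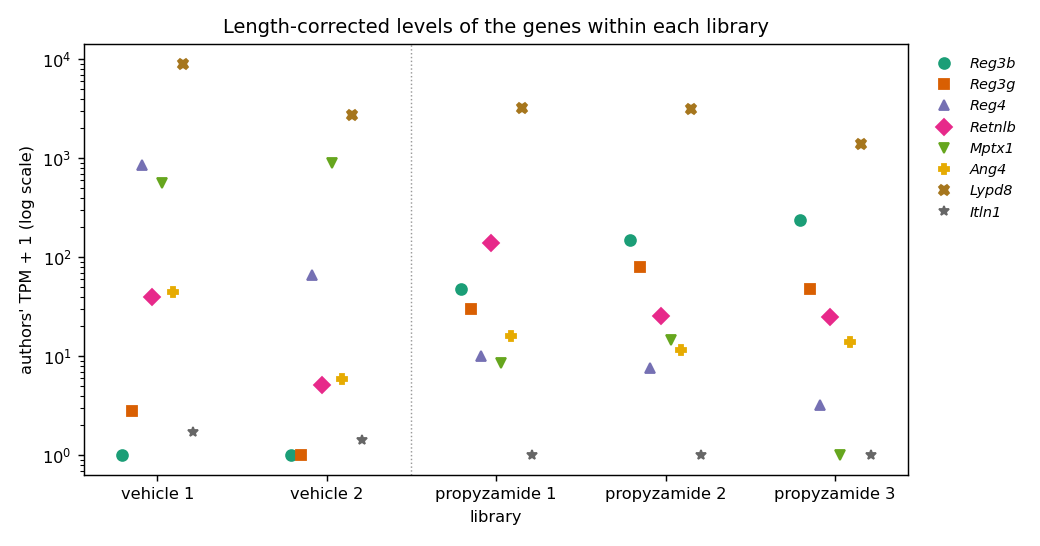
Length-corrected level of each gene within each library, as the authors' TPM + 1 on a log axis, with a colour and symbol per gene and a dotted line between the groups. Lypd8 is highest in all 5 libraries, Reg4 and Mptx1 come next in vehicle, and Reg3b, Reg3g and Retnlb come next in propyzamide.

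Set against the summed pan-epithelial markers, the 4 changes kept their direction. Per 1000 counts of the pan-epithelial markers, Reg3b had 0 and 0 counts in vehicle and 3.04, 16.3 and 30.2 in propyzamide. Reg3g had 0.287 and 0 against 1.93, 8.49 and 5.90. Reg4 had 59.4 and 11.6 against 0.829, 1.007 and 0.387, and Mptx1 had 28.9 and 118 against 0.513, 1.51 and 0. None of the 11 pan-epithelial genes passed edgeR's test (2 had an unadjusted p under 0.05, and DESeq2 called 1, higher), and the median of the list was -0.13. The smallest p among them belonged to Krt20, a keratin of mature surface cells (log2 fold change 1.66, edgeR adjusted p = 0.0561). Cldn3 (-1.19, edgeR adjusted p = 0.161) and Elf3 (-0.75, edgeR adjusted p = 0.302) went the other way. Of the 11, 4 had a positive log2 fold change and 7 a negative one. The groups did not overlap for 5, against 37.5% of all tested genes, so the markers did not move as 1.

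Goblet cells make Retnlb and Ang4, and their markers varied among libraries. The 13 goblet genes summed to 10010 and 3715 CPM in vehicle and 7116, 871 and 4662 CPM in propyzamide, so the groups overlapped. Of the 13, 2 fell and 0 rose past edgeR's threshold, with a list median of -1.46. The log2 fold change was negative for 12 and positive for 1, against 6119 negative of all 12024 tested genes. An unadjusted p under 0.05 was held by 6, against 2184 of all tested genes. The groups did not overlap in CPM for 6, against 37.5% of all tested genes. The bestrophin channel gene Best2 fell (43.0 and 21.6 CPM against 5.10, 0 and 1.22 CPM, log2 fold change -3.74, SE 0.77, edgeR adjusted p = 0.0339), and so did the kallikrein Klk1 (548 and 431 CPM against 181, 139 and 93.8 CPM, log2 fold change -1.83, SE 0.38, edgeR adjusted p = 0.0364). Best2 lost its call without vehicle replicate 1, vehicle replicate 2 or propyzamide replicate 3 (adjusted p = 0.392, 0.107 and 0.0842). Klk1 lost it without any one of these or propyzamide replicate 2 (adjusted p from 0.0663 to 0.255), and in limma on all 5 libraries (adjusted p = 0.0503 at a pseudocount of 1 and 0.111 at 0.1). Clca1, a secreted mucus protease, had a log2 fold change of -2.98 (edgeR adjusted p = 0.0521). The log2 fold change of Clca1 was -1.52 with an offset for transcript length (adjusted p = 0.230) and -1.83 without vehicle replicate 1 (adjusted p = 0.474), and the gene passed with upper-quartile scaling (0.0476), pan-epithelial scaling (0.0205), no filter (1.15e-09), the replicate block (7.23e-07) and without propyzamide replicate 1 (0.0323). The mucin Muc2 was at 3333 and 1050 CPM in vehicle and 3603, 349 and 2283 CPM in propyzamide (log2 fold change -0.08, edgeR adjusted p = 0.973).

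Per 1000 goblet marker counts, Reg4 had 42.8 and 19.6 counts in vehicle and 1.003, 8.25 and 0.522 in propyzamide. Mptx1 had 20.8 and 199.9 against 0.621, 12.4 and 0. Retnlb had 1.20 and 0.764 against 9.36, 18.9 and 3.53. Ang4 had 1.36 and 0.916 against 1.05, 8.25 and 1.96, with overlap. Relative to the summed goblet markers too, Reg4 and Mptx1 were lower and Retnlb was higher in every propyzamide library, while Ang4 had no common direction. That sum leans on Muc2, with 8060 of 24204 counts in vehicle replicate 1 and 10601 of 20937 in propyzamide replicate 1. A single marker can give another order. Clca1 had 3952 and 825 counts in vehicle and 629, 48 and 265 in propyzamide. Per Clca1 count, Reg4 (14 counts) and Mptx1 (21 counts) in propyzamide replicate 2 stood above vehicle replicate 1.

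Paneth cells belong to the small intestine and are a source of Ang4 and of Reg3g there. Of 10 Paneth markers, the 5 defensin genes Defa17, Defa21, Defa22, Defa24 and Defa26 had 0 counts in every library, and 1 was tested. The list summed to 33.5 and 10.8 CPM in vehicle and 2.04, 1.54 and 1.22 CPM in propyzamide. Most of the vehicle sum was Lyz1, at 24.8 and 5.67 CPM. The part of Paneth cells in the Reg3g change was not tested. Lyz1, the Paneth lysozyme, was the gene tested, and it fell from 60 and 10 counts to 0, 3 and 0 counts. The ratio was 36.5-fold lower (95% exact counting interval 11.98 to 181), with a log2 fold change of -4.86 (SE 1.09, edgeR adjusted p = 0.0466). That call was lost without vehicle replicate 2 or propyzamide replicate 3 (adjusted p = 0.0914 and 0.0953), and Lyz1 fell below the count filter in the other leave-outs, so it held in none. It was also lost with an offset for transcript length (adjusted p = 0.0586). Pancreatic acinar genes, which accompany Reg genes in pancreas, summed to at most 4.55 CPM in any library.

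Genes that mark position along the gut differed between the groups in the same libraries. Of 6 posterior Hox genes, which mark the posterior gut, 5 were tested, 3 fell and 0 rose (median -3.50), and the list summed to 224 and 279 CPM in vehicle and 33.3, 30.3 and 18.3 CPM in propyzamide. Hoxd13 had 81 and 91 counts in vehicle and 0 in each propyzamide library (edgeR adjusted p = 0.00217), at least 89.6-fold lower. Hoxb13 stood at 165 and 179 CPM against 23.1, 16.4 and 4.87 CPM (log2 fold change -3.50, SE 0.48, edgeR adjusted p = 0.00605). Hoxd11 had 20 and 43 counts against 0 in each propyzamide library (edgeR adjusted p = 0.0149), but not without vehicle replicate 2 (adjusted p = 0.259). Hoxd10 had 18 and 23 counts against 0, 0 and 5 and did not pass (log2 fold change -3.49, edgeR adjusted p = 0.138). Hoxd12, too low to test, had 11 and 3 counts against 0 in each propyzamide library. The part of the receptor-gene background in these low counts was not tested. Hoxa13 went the other way, at 4.55 and 9.08 CPM against 10.2, 13.9 and 10.3 CPM, without overlap and not past the threshold (log2 fold change 0.77, edgeR adjusted p = 0.534).

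Of 15 genes of ileum and small intestine, 8 were tested, 4 rose and 0 fell (median 4.28), and the list summed to 40.5 and 35.2 CPM in vehicle and 311, 1050 and 668 CPM in propyzamide. Most of the propyzamide sum was Fabp2. Fabp2, a fatty acid carrier of enterocytes, rose from 7.44 and 2.84 CPM to 228, 837 and 453 CPM (log2 fold change 6.56, SE 0.74, edgeR adjusted p = 0.00231). Slc10a2, the ileal bile acid transporter, rose from 1.24 and 1.70 CPM to 13.6, 59.5 and 77.9 CPM (log2 fold change 5.05, edgeR adjusted p = 0.0136). Slc51b, a subunit of the basolateral bile acid exporter, rose with a log2 fold change of 3.51 (edgeR adjusted p = 0.0182), and the alkaline phosphatase Alpi had 2 and 0 counts in vehicle against 96, 27 and 55, a ratio of 56.9 (95% exact counting interval 15.5 to 474, edgeR adjusted p = 0.00759). Of the 8, 7 had a positive log2 fold change and 1 a negative one, against 5905 positive of all 12024. DESeq2 called 6 higher and 0 lower. Apoa1 had 0 counts in both vehicle libraries and 8, 115 and 22 in propyzamide (edgeR adjusted p = 0.0504). Slc51a, with overlap, had 4 and 9 counts against 5, 45 and 98 (log2 fold change 3.07, edgeR adjusted p = 0.161). Sis, too low to test, had 0 and 1 against 0, 25 and 2. Some other genes of the list did not follow. Onecut2, a transcription factor, stood at 10.3 and 6.24 CPM against 0.680, 2.57 and 0.609 CPM, lower without overlap but not past the threshold (log2 fold change -2.67, edgeR adjusted p = 0.138). Gata4, the proximal gut factor, had 5 and 5 counts against 0, 0 and 2, and Fabp6, the ileal bile acid binding protein, had 0 and 4 against 0, 4 and 2. Apoa4, Lct and Mttp, also too low to test, overlapped between the groups. The receptor-gene background was higher in both vehicle libraries than in any propyzamide library. Its part in the low counts of this list, those of Onecut2 and Gata4 included, was not tested. Without vehicle replicate 2 the calls of Slc10a2 (adjusted p = 0.102), Slc51b (0.137) and Alpi (0.0685) did not hold, nor did those of Slc10a2 (0.1999) and Slc51b (0.143) without vehicle replicate 1. The colon segment of each piece is not given, and the part of position along the gut in the changes of the Reg genes and Mptx1 was not tested.

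Smooth muscle genes also differed between the groups: 6 genes of contractile muscle summed to 435 and 2909 CPM in vehicle and to 5032, 7304 and 8469 CPM in propyzamide. The vehicle libraries themselves stood far apart. With a library left out, log2 fold changes ran from 1.47 to 3.90 for Cnn1, 1.40 to 4.15 for Actg2 and 1.26 to 4.50 for Myh11. None of the 6 passed edgeR's test. All 6 had an unadjusted p under 0.05, against 2184 of all 12024 tested genes, and DESeq2 called 4 of them, all higher. The list had a median of 2.06 and the smallest adjusted p at Cnn1, calponin (2.23, edgeR adjusted p = 0.0783). Neutrophil markers summed to 109 and 328 CPM in vehicle and 98.2, 32.3 and 23.7 CPM in propyzamide. Most of that sum was Ly6g, at 102 and 317 CPM against 94.5, 30.3 and 21.9 CPM, and Ly6g was the only 1 of the 8 markers tested. It did not pass in edgeR (log2 fold change -2.08, adjusted p = 0.0835), but passed in DESeq2 (adjusted p = 0.0186), in limma on log2(TPM + 1) (0.0272) and without propyzamide replicate 1 (0.0105). Without vehicle replicate 2 its log2 fold change was -0.98. The granulocyte genes S100a8 and S100a9 had at most 10 counts in any library, and Csf3r, Cxcr2, Retnlg and Il1r2 had at most 2. The sum therefore follows Ly6g alone, and neutrophil content cannot be read from it. The part of muscle and neutrophil content in the member changes was not tested.

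**Figure D4:**
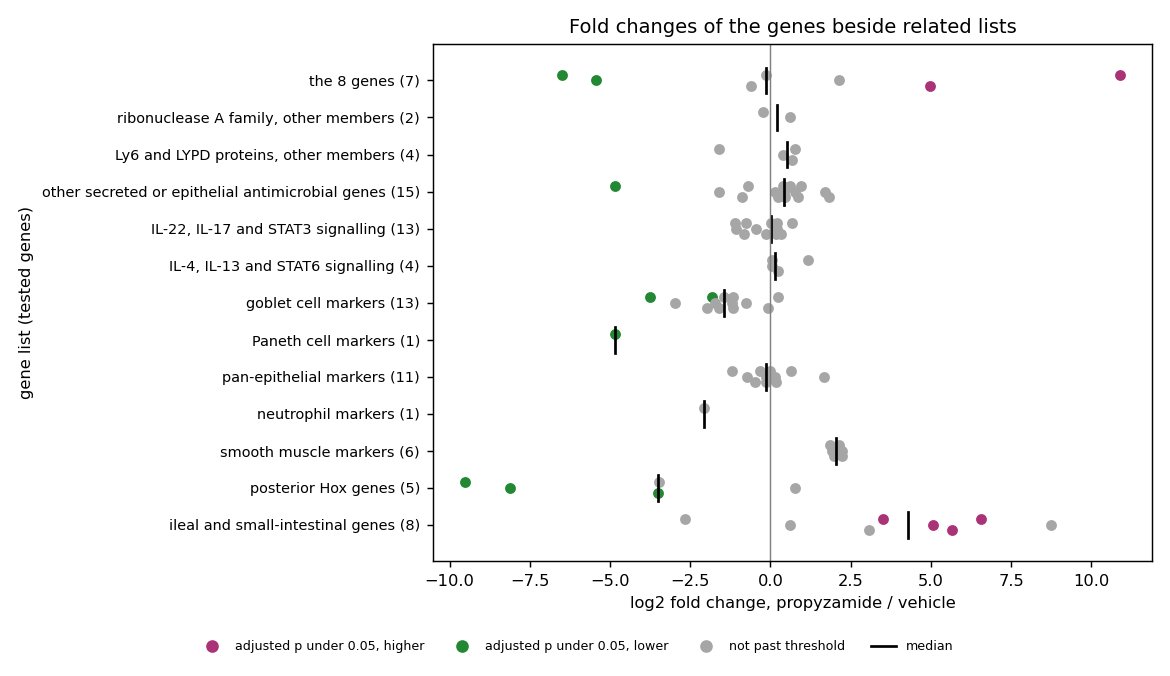
Log2 fold change, propyzamide over vehicle, of each tested gene in the group described here and in the related lists, with purple for higher and green for lower at an adjusted p under 0.05, grey for genes that did not pass and a black bar at the list median. The 7 tested genes of the group spread from -6.51 to 10.88. Posterior Hox genes lie mostly to the left (median -3.50) and small-intestinal genes mostly to the right (median 4.28). The cytokine signalling lists have medians near 0 (0.02 and 0.14), with single genes from -1.10 (Myd88) to 1.16 (Il33).

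The close relatives of the 8 genes were mostly too low to test. Of the other pentraxins (7) and the other resistin-family genes (3), none was tested, and each list summed to at most 11.99 CPM in any library. In the ribonuclease A family 7 of 8 symbols were matched and 2 were tested, with 0 called by edgeR, DESeq2 or limma and 0 at an unadjusted p under 0.05. Rnase4 had a log2 fold change of 0.62 (edgeR adjusted p = 0.517), and Ang, the closest relative of Ang4 tested, stood at 5.38 and 5.67 CPM against 4.42, 8.21 and 1.22 CPM (-0.24, edgeR adjusted p = 0.918). Of the Ly6 and LYPD genes 10 of 11 were matched and 4 were tested, with 0 called by edgeR (1 at an unadjusted p under 0.05, and 1 called lower by DESeq2) and a median of 0.53. The smallest p there belonged to Ly6e, an interferon-inducible surface protein (-1.60, edgeR adjusted p = 0.101).

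Among 37 other antimicrobial genes, 11 had 0 counts everywhere, 15 were tested, 0 rose and 1 fell, which was Lyz1. The median of the tested genes was 0.43. Wfdc2, a secreted protease inhibitor of epithelium, had a log2 fold change of -1.60 (edgeR adjusted p = 0.103). Its groups did not overlap, at 124 and 119 CPM in vehicle against 73.4, 21.6 and 23.7 CPM. In edgeR it passed with pan-epithelial scaling (adjusted p = 0.0374), no filter (0.0184), the replicate block (0.0260) and without propyzamide replicate 1 (0.00742). It passed under no other setting. Lcn2, the siderophore-binding lipocalin that inflamed epithelium secretes, stood at 0.827 and 5.67 CPM in vehicle and 3.06, 18.5 and 9.74 CPM in propyzamide (1.71, edgeR adjusted p = 0.360). Zg16, the lectin-like protein of goblet cells that binds Gram-positive bacteria, stood at 1222 and 555 CPM against 1620, 160 and 1340 CPM (0.23, edgeR adjusted p = 0.913). The groups overlapped for both Lcn2 and Zg16.

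For the signals known to induce the Reg3 lectins, edgeR called no change. Of 21 genes of interleukin-22, interleukin-17 and STAT3 signalling, 13 were tested, 0 rose and 0 fell, with a median of 0.02. Of these 13, 1 had an unadjusted p under 0.05 in edgeR, and DESeq2 and limma called 0. The cytokine gene Il22 itself had 0 and 2 counts in vehicle and 0 in each propyzamide library, and Il17a and Il23r had 0 counts everywhere. Il23a, a subunit of interleukin-23, had 10 and 4 counts in vehicle against 0 in each propyzamide library, at least 7.29-fold lower. Il6 had 8 and 5 counts against 0, 1 and 0, a ratio of 20.3-fold lower (95% exact counting interval 3.05 to 863). Both were too low to be tested. The receptor-gene background was also higher in vehicle, at 0.899 and 0.565 counts per kb of exon against 0.0593, 0.461 and 0.138, and its part was not tested. The interleukin-22 receptor subunits Il22ra1 (-1.09, edgeR adjusted p = 0.435) and Il10rb (-0.83, edgeR adjusted p = 0.235) did not pass. Stat3 stood at 55.8 and 51.1 CPM against 61.2, 57.5 and 59.0 CPM (0.15, edgeR adjusted p = 0.868), and its feedback inhibitor Socs3 did not pass (0.19, edgeR adjusted p = 0.939). Myd88, the adaptor of most Toll-like receptors, had a log2 fold change of -1.10 (edgeR adjusted p = 0.282).

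For the pathway that induces Retnlb, 4 of 11 genes of interleukin-4, interleukin-13 and STAT6 signalling were tested, with 0 called by edgeR, DESeq2 or limma, 0 at an unadjusted p under 0.05 and a median of 0.14. Il13 had 1 count in all, and Il4, Il5, Il25 and Il13ra2 had 0 counts everywhere. The alarmin Il33 had a log2 fold change of 1.16 (edgeR adjusted p = 0.603), Il4ra one of 0.22 (edgeR adjusted p = 0.887) and Stat6 one of 0.06 (edgeR adjusted p = 0.954). The sign of Il4ra and Stat6 turned under some settings. Tslp, an epithelial alarmin too low to be tested, had 5 and 3 counts in vehicle and 0 in each propyzamide library, at least 4.17-fold lower over the groups. As for Il23a and Il6, the part of the higher receptor-gene background in vehicle was not tested. For Il13, Il4, Il5 and Il25 a change was not detectable at this depth.

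Among 10819 other genes, the profile most like that of Reg3b over the 5 libraries was that of Fabp2, at a root mean square difference of 0.726 in log2(CPM + 1) after centring each gene. Tmigd1, a kidney and gut epithelial adhesion protein, came next at 0.841. For Reg3g the nearest were the adrenergic receptor gene Adra2a (0.236) and the lipid droplet gene Cidec (0.565). Reg4 was nearest to Nxpe2 (0.738), then to Duxf3 (0.863), a repeated family whose counts are uncertain. Mptx1 was nearest to the sugar-phosphate carrier Slc37a2 (0.951) and the transglutaminase Tgm3 (1.24).

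Retnlb was nearest to Plet1 (0.359) and Ddah1 (0.444), Ang4 to Ptgr1 (0.0741) and Cct4 (0.125), and Lypd8 to the inflammatory caspase Casp1 (0.0557) and Zxdc (0.0865). The counts of Itln1 were too few for a likeness to mean anything, and none is given. Each likeness rests on 5 libraries of 2 groups and is given as a description.

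**Figure D5:**
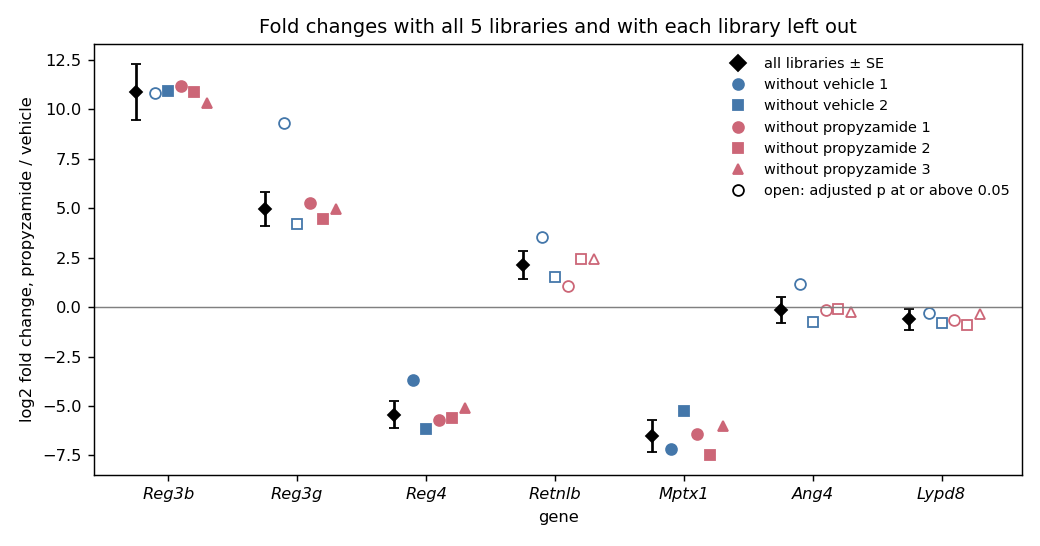
Log2 fold change, propyzamide over vehicle, of the 7 tested genes with all 5 libraries (black diamonds, bars of 1 SE) and with each library left out in turn, open symbols marking an adjusted p of 0.05 or more. Reg4 and Mptx1 keep filled symbols in all 5 cases, Reg3b loses its call without vehicle replicate 1, and Reg3g loses it without either vehicle library.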

How the data were processed

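The libraries, 5 in all, were made from frozen colon pieces by the SMART-Seq2 method, per the labels' protocols. For each library the authors deposited an RSEM table, which holds every transcript's estimated count, TPM, FPKM and percent of its gene, per the file headers. Neither FPKM nor percent was used. RSEM, kallisto and GRCm38 are named per the submitters' processing notes. The annotation release, the tools' settings and any use of strand: not given in the sources used here.

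Estimated counts (142647 transcripts) were added up to 55471 genes and rounded, and TPM was added up likewise. Symbols matched 99.4% of gene identifiers. Coordinates came from GENCODE M21, where 99.6% of identifiers were found. The 8 genes, the lists and the alternatives were chosen with earlier results of these data known. Genes were tested with edgeR 4.0.16 in R 4.3.3 (filterByExpr, TMM, quasi-likelihood, Benjamini-Hochberg over all tested genes, threshold 0.05), with DESeq2 1.42.0 and limma 3.58.1 as alternatives. A single count equals 0.340 to 0.609 CPM. Counting intervals (95%) and the limit of 3 counts over a group cover counting error only, since reads carry no molecular identifiers.

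Named genes were the 8, every called gene of each list or up to 3 of smallest p, and the 2 nearest profiles per gene, taken from genes with a mean log2 CPM of at least 2 and no predicted, clone or pseudogene name. A few more list genes were named after values were seen: Lcn2, Zg16, Muc2, Stat3, Socs3, Hoxa13, Hoxd10, Onecut2, Apoa1 and Slc51a. So were untested relatives, cytokines, and neutrophil, Hox and small-intestinal genes. They were named for their function or direction. Hoxd10, Apoa1 and Slc51a were not followed over the alternative settings. On simulated counts for this comparison (12024 genes, 200 changed), the test recovered 2.99% of 2-fold, 44.8% of 4-fold and 81.8% of 8-fold changes, and 8.51% of calls were false. Libraries differed pairwise beyond sampling noise (chi-square per degree of freedom 16.0 to 48.1).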

Additional observations from a re-analysis of the deposited data

How the results depend on the processing

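With 2 vehicle libraries, calls rest on few samples. The 4 calls among the 8 genes held under every alternative that kept all 5 libraries. No filter on low counts and the replicate block each added Retnlb (5 genes called). Leaving out 1 library gave 2 to 4 calls, with 2 (both lower) without vehicle replicate 1 and 3 without vehicle replicate 2. Ang4 ranged from -0.73 to 1.18 with a library left out, the latter without vehicle replicate 1, and was not tested under a filter of 10 CPM in 2 samples.

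Over all genes, 229 were called (83 higher, 146 lower). Other settings gave 407 (94 higher, 313 lower) with scaling to pan-epithelial markers, 565 (260, 305) with DESeq2, 1327 (450, 877) with no filter, 490 (66, 424) with limma on log2(TPM + 1), 101 (32, 69) with the same without a variance trend, 362 (104, 258) without rRNA-like and mitochondrial genes, and 109 (54, 55) with background subtracted. Upper-quartile scaling gave 314 (79, 235), and limma on log2(TPM + 0.1) gave 277 (40, 237), or 310 (23, 287) without the trend. The 2 fits without a variance trend were added after seeing the data. The overall median log2 fold change was -0.14 with upper-quartile scaling, -0.13 with pan-epithelial scaling, -1.14 with no filter, and -0.39 and -0.47 with limma at pseudocounts of 1 and 0.1. Leaving out 1 library gave 36 to 499 calls: vehicle replicate 1 left 36, vehicle replicate 2 left 55, propyzamide replicate 1 left 499 and propyzamide replicate 3 left 78.

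The labels do not pair the mice. Libraries with the same number correlated in their deviations at 0.171 (number 1) and 0.148 (number 2). With 2 vehicle libraries the deviations mirror each other, so the other vehicle library gave -0.171 and -0.148. Pairing therefore cannot be read from these values. The replicate block gave 639 calls (324 higher, 315 lower), with all 4 calls among the 8 genes held.

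For 53 other named genes, 847 of 987 comparisons gave the same call, 36 lost it, 39 gained it and 65 changed sign, and the cause was not tested. Under the replicate block Ang turned to 0.12, Zg16 to -0.68 and Socs3 to -0.58. Muc2 turned to 0.0707 with no filter. Limma at pseudocounts of 1 and 0.1, with or without a trend, turned Ly6a to -0.168 and -0.169, Il4ra to -0.0866 and -0.085, Stat6 to -0.319 and -0.336, Ptgr1 to -0.149 and -0.0878, Cct4 to -0.235 and -0.223, Zg16 to -0.598 and -0.599, Stat3 to -0.67 and -0.705, and Socs3 to -0.235 and -0.305. Upper-quartile scaling, pan-epithelial scaling, the 10 CPM filter and background subtraction turned Stat6 to -0.0684, -0.0315, -0.0451 and -0.0806, and Ptgr1 to -0.127, -0.0565, -0.105 and -0.135. Ptgr1 was -0.019 without rRNA-like and mitochondrial genes. With the length offset Stat3 was -0.292 and Cct4 -0.0054, and Cct4 was -0.0022 with background subtracted. With a library left out, the ranges were -0.30 to 0.17 for Ang, -0.28 to 0.67 for Ly6a, -1.77 to 0.13 for Il22ra1, -0.31 to 0.88 for Il4ra, -0.0721 to 0.22 for Stat6, -0.56 to 1.20 for Ptgr1, -0.35 to 1.10 for Cct4, -0.78 to 0.97 for Muc2, -0.29 to 0.89 for Zg16 and -0.11 to 0.73 for Socs3.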
